A study of Mus musculus with 16 samples.

Results

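The striatum sends its output through a pair of projection neuron types, and 10 genes that tell them apart were followed through a chemical injury in WT mice and in mice labelled GS. The direct pathway set was Drd1, Tac1, Pdyn, Chrm4 and Isl1, and the indirect pathway set was Drd2, Adora2a, Penk, Gpr6 and Gpr52. Both follow textbook cell identity and no cutoff on a measured value, but were chosen with earlier results of these data known. All 10 were among the 19457 genes of the deposited count table and among the 18813 genes tested, with at least 725 counts in every library. RNA came from brain striatum of WT mice and of GS mice, taken to carry the LRRK2 G2019S allele of the series title. The sources used here do not say whether this is a knock-in or a transgene, nor how old the mice were. The WT intact and GS intact groups carry no injection, and the other 6 groups received 0.8 µl of 500 mM ATP into the striatum on one side and were collected after 6 h, 3 d or 15 d. Each of the 8 groups has 2 libraries, which the labels call biological replicates, so 16 libraries were used. No vehicle group is analysed here, so the needle, the volume and ATP itself enter every injury comparison together.

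Direct pathway neurons project to the substantia nigra and the internal globus pallidus and favour movement, while indirect pathway neurons project to the external globus pallidus and restrain it. Dopamine raises cAMP in the first type through the receptor that Drd1 encodes and lowers it in the second through the receptor that Drd2 encodes. The cells also carry an opposing receptor, the muscarinic receptor of Chrm4 in direct and the adenosine receptor of Adora2a in indirect neurons. Each type also releases its own peptides, cut from the precursors of Tac1 (substance P) and Pdyn (dynorphins) or of Penk (enkephalins). Levels of these genes are therefore used as a reading of both pathways in striatal disease and after dopamine loss.

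Total counts ran from 49220578 to 63948110 per library. All 22 genes of a list shared by both projection neuron types were measured in every library, at a summed level of 17122 to 21636 CPM (CPM is a count scaled to library size by TMM) in intact striatum. Markers of cortical excitatory neurons, at a summed 26.0 to 193 CPM in intact striatum, were highest in 3 WT libraries. These were replicate 1 of WT intact (193 CPM), replicate 2 of WT at 6 h (105 CPM) and replicate 1 of WT at 15 d (54.3 CPM). The last was close to the GS intact libraries (46.2 and 47.8 CPM). Without the 3 WT libraries 4 calls given below were lost. They were those of Drd2 at 6 h over both genotypes, of Pdyn in WT at 3 d, and of Chrm4 at 6 h and Penk at 3 d in GS.

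In intact striatum the genes differed widely in level. Per kilobase of exon, which is the scale on which genes can be compared, Penk stood at 859 CPM per kb, Adora2a at 137, Drd2 at 132, Drd1 at 73.7, Tac1 at 57.1, Gpr6 at 52.7, Pdyn at 24.6 and Isl1 at 4.72. Drd2 and Adora2a, at 336 ± 66.4 CPM and 420.5 ± 67.4 CPM (SD, n = 4 libraries) before division by length, were not separated beyond their spread. Isl1, a transcription factor of direct pathway neuron differentiation, was the lowest. Chrm4 and Gpr52 are left out of this order because the gene models used for length did not cover them in full.

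After injury, at 15 d 9 of the 10 genes fell and Pdyn rose. But with library sizes set to 22 shared projection neuron genes, only Adora2a of those 9 still passed as a fall. Drd1, Tac1, Isl1 and Gpr6 then had a value above 0 and Chrm4, Drd2, Penk and Gpr52 a value below it, and none of these passed. All falls and rises are on the scale of all genes (TMM) unless the other scaling is named. The test was edgeR's quasi-likelihood test with Benjamini-Hochberg adjustment over all 18813 genes, at an adjusted p under 0.05, and each injected stage was set against intact striatum with both genotypes given equal weight. At 6 h 3 genes fell (Drd2, Adora2a and Gpr52, all indirect) and 1 rose (Pdyn). There 9.76% of all genes fell and 11.5% rose. The direct gene Chrm4 missed the threshold at 6 h, at -0.17 ± 0.06 (adjusted p = 0.061). It was called down then by DESeq2 (adjusted p = 0.044) and by edgeR fitted to only the groups compared (adjusted p = 0.0074). The call of Drd2 at 6 h did not hold in several other settings, given below. At 3 d 4 fell (Chrm4, Isl1, Drd2 and Adora2a) and 1 rose (Pdyn), against 23.2% and 23.4% of all genes. At 15 d the 9 that fell compare with 23.8% of all genes and the 1 that rose with 23.6%. The median log2 fold change of the direct set was 0.04, -0.07 and -0.40 at 6 h, 3 d and 15 d, that of the indirect set -0.21, -0.23 and -0.54, and that of all genes lay between -0.02 and 0.00. In whole tissue, fewer cells of a type and less RNA per cell cannot be told apart.

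**Figure D1:**
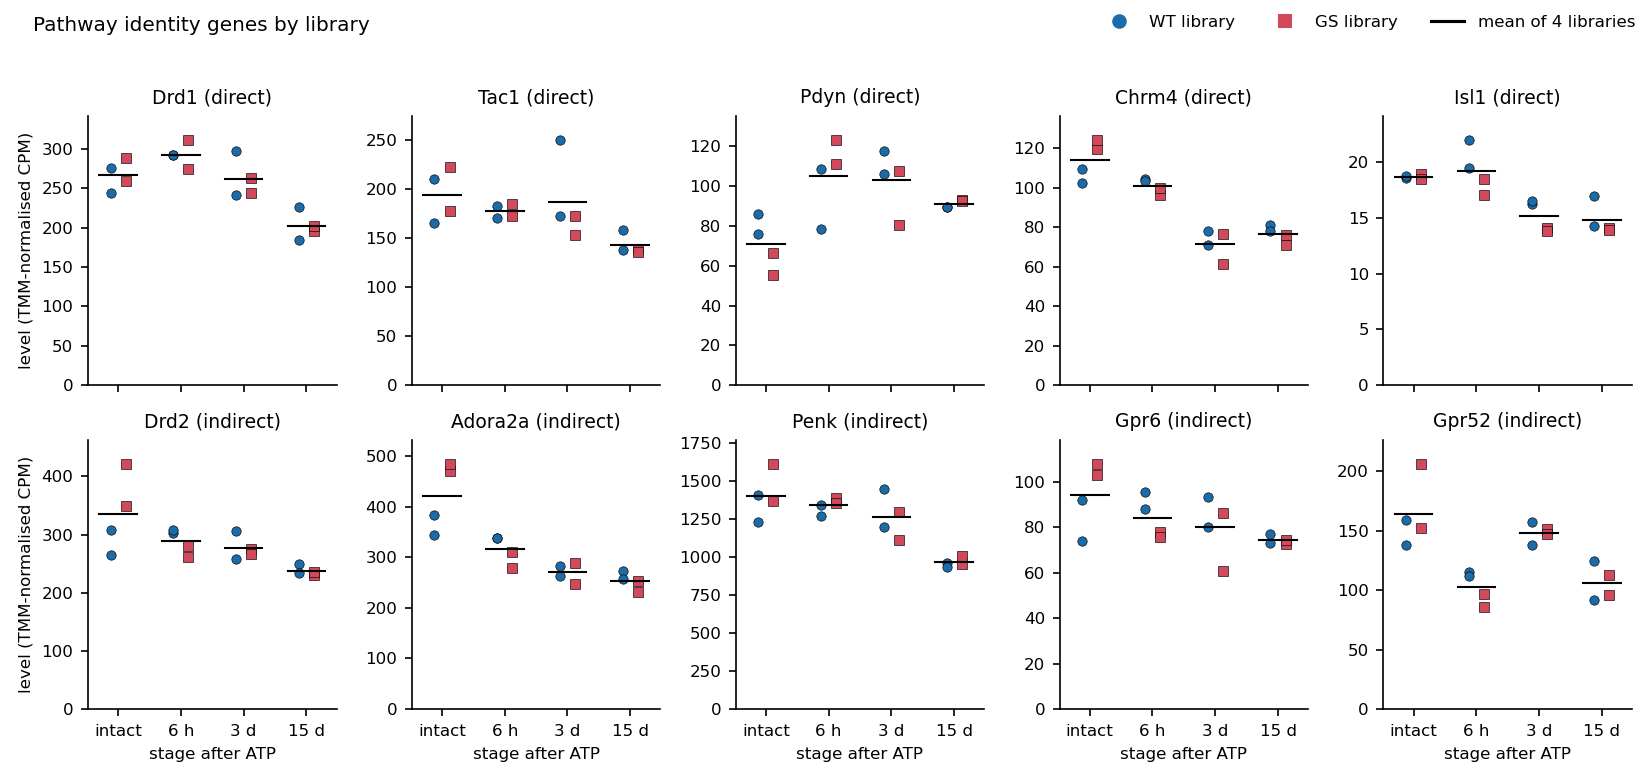
Level of each of the 10 genes in TMM-normalised CPM (vertical axes, each from 0) in every library at each stage (horizontal axis), with WT libraries as circles, GS libraries as squares and the mean of the 4 libraries of a stage as a bar. Pdyn stands higher in all 3 injured stages than in intact striatum on average, the intact levels of Drd2 and Adora2a are highest in the GS libraries, and at 15 d most genes are at their lowest. With scaling to shared projection neuron genes only Adora2a still passes as a fall at 15 d, and 4 of the other falls have a value above 0 that does not pass.

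The promoters of 3 genes are shown as examples that differ in the binding motif of CREB. Through this factor cAMP and calcium act on peptide genes. Each is the 250 bases upstream of a RefSeq start of GRCm38.p6, 5′ to 3′ on the gene's strand. Capitals mark CGTCA, the core of the motif, or its palindrome TGACGTCA, which contains the core, on either strand.
Pdyn, chr2:129699939-129700188, minus strand: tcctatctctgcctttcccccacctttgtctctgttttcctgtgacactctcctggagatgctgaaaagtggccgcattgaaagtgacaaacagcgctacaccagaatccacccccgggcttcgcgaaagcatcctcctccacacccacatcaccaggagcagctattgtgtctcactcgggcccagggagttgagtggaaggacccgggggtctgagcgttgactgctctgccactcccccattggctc
Tac1, chr6:7554811-7555060, plus strand: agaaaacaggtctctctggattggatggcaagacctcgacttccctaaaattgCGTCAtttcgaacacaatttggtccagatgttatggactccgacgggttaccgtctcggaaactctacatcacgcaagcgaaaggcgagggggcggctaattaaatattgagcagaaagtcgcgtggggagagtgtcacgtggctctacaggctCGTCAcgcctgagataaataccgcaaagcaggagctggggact
Gpr6, chr10:41072291-41072540, minus strand: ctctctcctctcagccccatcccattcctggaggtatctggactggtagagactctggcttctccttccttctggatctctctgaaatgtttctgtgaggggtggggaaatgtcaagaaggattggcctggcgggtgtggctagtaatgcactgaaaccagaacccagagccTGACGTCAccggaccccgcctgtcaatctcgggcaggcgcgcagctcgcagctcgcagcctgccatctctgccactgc
The Pdyn window holds none of these letters, the Tac1 window holds the core at 2 places, and the Gpr6 window holds the palindrome, in which the core reads on both strands. RefSeq promoter windows were matched for 7 of the 10 genes, 9 windows in all. The palindrome was in 1 of 9 and in 1.55% of 32851 windows of all genes. The core was in 3 of 9, those of Tac1, Isl1 and Gpr6, and in 17.8% of all windows. The windows of Drd1, Chrm4 and Drd2, like those of Pdyn, did not hold it. The AP-1 motif TGACTCA, bound by Fos and Jun, was in 0 of 9 and in 4.46% of all windows. A match describes the letters of this window and is no evidence of binding, and a link to the changes in level was not tested.

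Drd1 (NCBI Gene 13488, chr13:54051183-54055658 of GRCm38.p6, as all positions here) did not pass the test until 15 d, when it fell. It was at 244 and 276 CPM in WT and 260.0 and 289 CPM in GS in intact striatum (replicate 1, then 2) and at 293 and 293 CPM in WT and 311 and 275 CPM in GS at 6 h. At 3 d the levels were 297 and 242 CPM in WT and 264 and 245 CPM in GS, and at 15 d 226 and 185 CPM in WT and 196 and 203 CPM in GS. All 4 libraries at 15 d lay below all 4 intact ones, while the other stages overlapped them. Against intact striatum this gave a log2 fold change of 0.13 ± 0.08 (adjusted p = 0.25) at 6 h, -0.03 ± 0.08 (adjusted p = 0.78) at 3 d and -0.40 ± 0.08 (adjusted p = 0.00069) at 15 d. The step from 3 d to 15 d was itself a fall, at -0.37 ± 0.08 (adjusted p = 0.0078).

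Drd2 (NCBI Gene 13489, chr9:49340360-49408177), the receptor that inhibits cAMP formation in indirect neurons, fell at each time over both genotypes. In WT alone no log2 fold change passed, at 0.09 ± 0.10 (adjusted p = 0.64), -0.02 ± 0.10 (adjusted p = 0.88) and -0.24 ± 0.10 (adjusted p = 0.082) at 6 h, 3 d and 15 d. Over both genotypes the value of Drd2 at 3 d was 0.04 scaled to shared projection neuron genes. In intact striatum it was at 265 and 307 CPM in WT and 349 and 421 CPM in GS, and at 6 h at 303 and 308 CPM in WT and 281 and 261 CPM in GS. At 3 d it was at 305 and 258 CPM in WT and 276 and 266 CPM in GS, and at 15 d at 249 and 234 CPM in WT and 231 and 236 CPM in GS. Only at 15 d did every injured library lie below every intact one, and the intact libraries spread most, with GS above WT. Its log2 fold change at 6 h was -0.21 ± 0.07 (adjusted p = 0.047). At 3 d it was -0.27 ± 0.07 (adjusted p = 0.0058), and at 15 d -0.48 ± 0.07 (adjusted p = 5.5e-05). The call at 6 h was lost without any one of 10 of the 16 libraries (WT intact replicate 2, GS intact replicate 2, any of the 6 h libraries, and any of the GS libraries at 3 d and 15 d), with adjusted p up to 0.19, and in 6 of 10 other settings.

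Adora2a (NCBI Gene 11540, chr10:75316877-75334792), the adenosine receptor that opposes Drd2 in indirect neurons, had the largest fall of the 10 genes at 15 d and fell at every time. It stood at 344 and 384 CPM in WT and 469.9 and 484 CPM in GS in intact striatum and at 337 and 337 CPM in WT and 309.7 and 278 CPM in GS at 6 h. By 3 d it was at 282 and 262 CPM in WT and 288 and 247 CPM in GS, and by 15 d at 273 and 256 CPM in WT and 231 and 252 CPM in GS. At each time all 4 injured libraries lay below all 4 intact ones, and the intact level was higher in both GS libraries than in both WT ones. Log2 fold changes were -0.40 ± 0.06 (adjusted p = 0.00048), -0.63 ± 0.06 (adjusted p = 2.1e-06) and -0.72 ± 0.06 (adjusted p = 5.9e-07). The fitted level at 15 d was 0.607 times the intact one. Over both genotypes this gene and Pdyn kept their calls at all 3 times under the 10 other settings and without each of 16 libraries. The settings include the scaling to shared projection neuron genes.

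Chrm4 (NCBI Gene 12672, chr2:91922189-91929835), the muscarinic receptor that opposes Drd1 in direct neurons, fell from 3 d on. It was at 102 and 109 CPM in WT and 119 and 124 CPM in GS in intact striatum and at 104 and 104 CPM in WT and 96.1 and 99.6 CPM in GS at 6 h. At 3 d the levels were 77.9 and 71.1 CPM in WT and 76.4 and 61.2 CPM in GS, and at 15 d 81.0 and 78.0 CPM in WT and 70.8 and 75.8 CPM in GS. All libraries at 3 d and 15 d lay below the intact ones, and those at 6 h overlapped them. For Chrm4 the log2 fold change was -0.17 ± 0.06 (adjusted p = 0.061) at 6 h, -0.66 ± 0.06 (adjusted p = 1.6e-06) at 3 d and -0.57 ± 0.06 (adjusted p = 4.6e-06) at 15 d. Between 6 h and 3 d it fell by 0.49 on the log2 scale (adjusted p = 1.5e-05), and from 3 d to 15 d the difference was 0.09 ± 0.06 (adjusted p = 0.35). The gene overlaps Mdk, a growth factor gene on the opposite strand at 11.2 ± 0.72 CPM intact (n = 4), which rose at 3 d and 15 d (0.24 and 0.43), and the sources used here do not say whether counting used strand.

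Gpr52 (NCBI Gene 620246, chr1:160574717-160579704), an orphan receptor that raises cAMP in indirect neurons, fell at 6 h and at 15 d. It was at 138 and 159 CPM in WT and 152 and 206 CPM in GS in intact striatum and at 115 and 112 CPM in WT and 97.1 and 86.1 CPM in GS at 6 h. At 3 d it was at 157 and 138 CPM in WT and 151 and 147 CPM in GS, and at 15 d at 125 and 92.1 CPM in WT and 113 and 96.1 CPM in GS. The 6 h and 15 d libraries lay below all intact ones, and the 3 d libraries overlapped them. At 6 h the log2 fold change was -0.68 ± 0.10 (adjusted p = 0.00059), the largest fall of the 10 genes then. It was -0.14 ± 0.10 (adjusted p = 0.30) at 3 d and -0.62 ± 0.10 (adjusted p = 0.00023) at 15 d. Both steps between times were tested. From 6 h to 3 d Gpr52 rose by 0.54 ± 0.10 (adjusted p = 0.0006). From 3 d to 15 d it changed by -0.48 ± 0.10 (adjusted p = 0.0093), a call lost without GS 15 d replicate 2 (adjusted p = 0.051). Gpr52 lies within the span of Rabgap1l, a regulator of membrane traffic, which was at 83.6 ± 8.70 CPM intact (n = 4). That gene rose at 6 h, by 0.32 ± 0.07. Its values at 3 d and 15 d were -0.01 and -0.06.

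Gpr6 (NCBI Gene 140741, chr10:41069977-41072290), a further orphan receptor of indirect neurons that raises cAMP, moved least among the indirect set at 15 d on the scale of all genes. Scaled to shared projection neuron genes, Drd2 (-0.004), Penk (-0.06) and Gpr52 (-0.14) moved less than Gpr6 (0.15), and Adora2a (-0.24) moved more. On the scale of all genes, the levels of Gpr6 were as follows. It ranged over 74.1 to 108 CPM in intact striatum, 75.8 to 95.4 CPM at 6 h, 60.5 to 93.2 CPM at 3 d and 72.6 to 77.1 CPM at 15 d. The ranges overlapped at every time. For Gpr6 log2 fold changes were -0.16 ± 0.09 (adjusted p = 0.26), -0.23 ± 0.09 (adjusted p = 0.057) and -0.33 ± 0.09 (adjusted p = 0.0092). Leaving out replicate 2 of WT intact ended the last call, at -0.25. At 3 d Gpr6 was called down by DESeq2 (adjusted p = 0.041). EdgeR called it then with a filter at a mean of 1 CPM and with a cortical marker covariate (adjusted p = 0.046 and 0.048). Scaled to shared projection neuron genes its value at 3 d was 0.07.

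Among the peptide precursor genes, Pdyn (NCBI Gene 18610, chr2:129686549-129699938) was the only one of the 10 genes that rose at any time against intact striatum on the scale of all genes. It was at 75.9 and 86.2 CPM in WT and 66.6 and 55.5 CPM in GS in intact striatum and at 78.5 and 109 CPM in WT and 123 and 111 CPM in GS at 6 h. At 3 d the levels were 118 and 106 CPM in WT and 108 and 80.7 CPM in GS, and at 15 d 89.8 and 89.3 CPM in WT and 93.0 and 92.7 CPM in GS. At 15 d all 4 libraries lay above all intact ones, while at 6 h and 3 d 1 library each overlapped them, WT replicate 1 at 6 h and GS replicate 2 at 3 d. Its log2 fold change was 0.57 ± 0.10 (adjusted p = 0.0017) at 6 h, 0.55 ± 0.10 (adjusted p = 0.00064) at 3 d and 0.37 ± 0.10 (adjusted p = 0.0083) at 15 d. This is 1.49, 1.46 and 1.30 times the intact level. Neither step between times passed the test, at -0.03 ± 0.10 (adjusted p = 0.84) and -0.17 ± 0.10 (adjusted p = 0.29). In WT alone Pdyn passed only at 3 d, with 0.21 ± 0.15 (adjusted p = 0.46) at 6 h and 0.14 ± 0.15 (adjusted p = 0.51) at 15 d.

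Tac1 (NCBI Gene 21333, chr6:7555061-7562978), the substance P precursor gene of the same neurons, did not share this rise. Its levels covered 166 to 223 CPM in intact striatum, 170.2 to 184 CPM at 6 h, 153 to 249.7 CPM at 3 d and 136 to 158 CPM at 15 d, where all 4 libraries were below all intact ones. Log2 fold changes of Tac1 were -0.13 ± 0.11 (adjusted p = 0.44), -0.07 ± 0.11 (adjusted p = 0.64) and -0.44 ± 0.11 (adjusted p = 0.0038). WT replicate 1 at 3 d held the highest value of all 16 libraries, and without it the step from 3 d to 15 d, -0.38 ± 0.11 (adjusted p = 0.034), no longer passed. That step was also lost without 5 other libraries (both GS libraries at 3 d and at 15 d, each in turn, and WT 15 d replicate 2) and with the cortical markers as a covariate, with adjusted p up to 0.15.

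Penk (NCBI Gene 18619, chr4:4133536-4138815), the enkephalin precursor gene and the most abundant of the 10, passed the test at 15 d alone, when it fell. It was at 1230.3 and 1405 CPM in WT and 1366 and 1612 CPM in GS in intact striatum and at 1273 and 1341 CPM in WT and 1388 and 1358 CPM in GS at 6 h. At 3 d it was at 1448 and 1195 CPM in WT and 1293 and 1114 CPM in GS, and at 15 d at 962 and 933 CPM in WT and 954 and 1008 CPM in GS. All 15 d libraries lay below all libraries of the other 3 stages. Penk had log2 fold changes of -0.06 ± 0.07 (adjusted p = 0.59), -0.15 ± 0.07 (adjusted p = 0.11) and -0.54 ± 0.08 (adjusted p = 4.3e-05). The step from 3 d to 15 d was -0.39 ± 0.07 (adjusted p = 0.0051). Its span overlaps that of A830012C17Rik on the opposite strand, which is not analysed here.

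Isl1 (NCBI Gene 16392, chr13:116298270-116309688) covered 18.5 to 18.9 CPM in intact striatum, 17.0 to 21.9 CPM at 6 h, 13.8 to 16.5 CPM at 3 d and 13.9 to 17.0 CPM at 15 d. All libraries at the later 2 times were below the intact ones. Its log2 fold changes were 0.04 ± 0.07 (adjusted p = 0.74), -0.31 ± 0.07 (adjusted p = 0.0023) and -0.34 ± 0.07 (adjusted p = 0.0011). The step from 6 h to 3 d was -0.34 ± 0.07 (adjusted p = 0.00083). Isl1, Chrm4 and Drd2 are also expressed by cholinergic interneurons, and of 5 genes of those cells 0 fell at 6 h, 4 fell at 3 d and 5 fell at 15 d, with Chat at -0.60 ± 0.08 at 15 d. Scaled to shared projection neuron genes 0, 0 and 1 of the 5 fell. The summed level of these genes was 147 to 185 CPM in intact striatum and 103 to 121 CPM at 15 d, and their part in the fall of the 3 genes was not tested.

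Between successive times the genes that were called passed at different steps. From 6 h to 3 d 3 fell (Chrm4, Isl1 and Adora2a, the last by 0.22 on the log2 scale) and 1 rose (Gpr52), where 24.8% of all genes fell and 24.6% rose. From 3 d to 15 d 4 fell (Drd1, Tac1, Penk and Gpr52) and 0 rose, where 7.07% fell and 6.76% rose. Drd2 only just missed the threshold at this step, at -0.22 ± 0.07 (adjusted p = 0.05004), and DESeq2 called it (adjusted p = 0.019). With scaling to shared projection neuron genes 4 of the 10 passed at each step, where 51% and then 23.3% of all genes passed. At the first step Drd2 was higher, at 0.16 ± 0.05 (adjusted p = 0.019), as was Tac1, at 0.28 ± 0.08 (adjusted p = 0.0092). Adora2a was then near 0, and Isl1 was no longer called, at -0.12 ± 0.08 (adjusted p = 0.25). At the second step Chrm4 was higher, at 0.27 ± 0.06 (adjusted p = 0.0086), and Tac1 was no longer called, at -0.20 ± 0.08 (adjusted p = 0.082). On the scale of all genes the receptor genes Drd1 and Chrm4 of 1 cell type were called at different steps. So were Penk and Adora2a of the other. With the second scaling Drd1 (-0.20 ± 0.06, adjusted p = 0.021) and Chrm4 both passed from 3 d to 15 d, and Adora2a passed at neither step. No test compared genes with each other.

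Projection neuron genes of both pathways fell as well, so the 10 genes were also measured against them. Of 22 such genes 2 rose and 8 fell at 6 h, 0 rose and 17 fell at 3 d, and 0 rose and 21 fell at 15 d, on the scale of all genes. Among the larger changes at 6 h were those of Rxrg (-0.78 ± 0.07), a retinoid receptor, Ryr1 (-0.61 ± 0.08), a calcium release channel, and Dclk3 (0.28 ± 0.06), a kinase. At 3 d they included Rasgrp2 (-0.67 ± 0.06), an activator of small GTPases, Ryr1 (-0.65 ± 0.08), Adcy5 (-0.55 ± 0.05), the main striatal adenylyl cyclase, and Actn2 (-0.51 ± 0.06), an actin crosslinker. At 15 d they included Rasd2 (-0.70 ± 0.06), a small GTPase, Ptpn5 (-0.68 ± 0.07), the striatal phosphatase STEP, and Ryr1 (-0.64 ± 0.08). Genes of neurons at large fell too, in 1, 5 and 8 of 8 at the 3 times, although 0, 1 and 0 of them fell on the scale described next. Setting the library sizes to the summed counts of the 22 genes moved the median of all genes to 0.08 at 6 h, 0.29 at 3 d and 0.45 at 15 d, so that values on this scale say how a gene moved relative to the average projection neuron transcript.

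On that scale 4, 6 and 2 of the 10 genes passed at 6 h, 3 d and 15 d, where 18.1%, 55.4% and 71.5% of all genes passed. Pdyn and Adora2a kept their direction at all 3 times. Pdyn was at 0.65 ± 0.11 (adjusted p = 0.00068), 0.84 ± 0.11 (adjusted p = 7.2e-06) and 0.85 ± 0.11 (adjusted p = 3.6e-06). Adora2a was at -0.32 ± 0.05 (adjusted p = 0.00091), -0.32 ± 0.05 (adjusted p = 0.00011) and -0.24 ± 0.05 (adjusted p = 0.00083). At 6 h Gpr52 was still lower, at -0.59 ± 0.08 (adjusted p = 0.00014), and Drd1 was now higher, at 0.21 ± 0.06 (adjusted p = 0.015). At 3 d Chrm4 was still lower (-0.36 ± 0.06, adjusted p = 0.00012), and Drd1, Tac1 and Penk were higher, at 0.27 ± 0.06 (adjusted p = 0.00067), 0.24 ± 0.08 (adjusted p = 0.02) and 0.15 ± 0.06 (adjusted p = 0.03). At 15 d none of the other 8 genes passed, with values from -0.14 to 0.15. The fall of Drd1, Tac1, Isl1, Drd2, Penk, Gpr6, Chrm4 and Gpr52 at 15 d thus did not pass the test on this scale, which does not show that they fell alike.

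**Figure D2:**
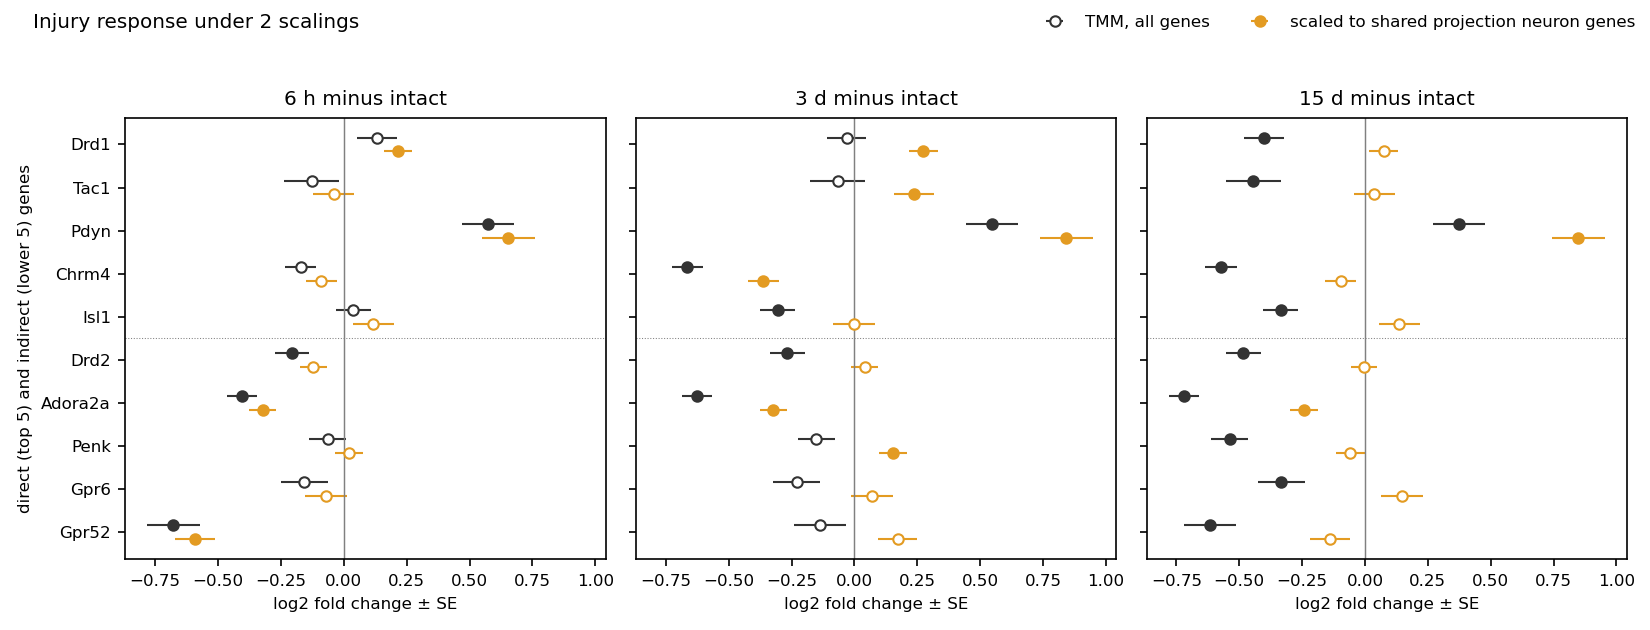
Log2 fold change ± SE of each gene (rows, direct set above the dotted line) at 6 h, 3 d and 15 d against intact striatum (panels), with TMM over all genes in dark and library sizes set to 22 shared projection neuron genes in orange. Filled points passed an adjusted p under 0.05; at 15 d only Pdyn and Adora2a are filled on both scales, and Drd1, Tac1, Isl1 and Gpr6 lie above 0 with the second scaling.

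The balance of both sets was described per library as the mean log2(CPM + 0.5) of the 5 direct genes minus that of the 5 indirect genes. It was -1.71 ± 0.20 (SD, n = 4) in intact striatum, from -1.95 to -1.52, with both GS libraries (-1.79 and -1.95) below both WT ones (-1.52 and -1.57). The balance was -1.32 ± 0.11 at 6 h, -1.53 ± 0.07 at 3 d and then -1.44 ± 0.02 at 15 d, and so 0.39, 0.18 and 0.26 above intact. All libraries at 6 h and 15 d lay above all intact ones. Without the 3 peptide genes the differences were 0.35, -0.017 and 0.10, so the shift at 3 d turned and the one at 15 d was smaller. Within WT the values at 6 h were -1.44 and -1.39, and within GS they were -1.23 and -1.23. The mean of the direct genes moved by 0.09, -0.11 and -0.27 from intact, that of the indirect genes by -0.30, -0.28 and -0.53, and that of the 22 shared genes by -0.13, -0.30 and -0.45.

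**Figure D3:**
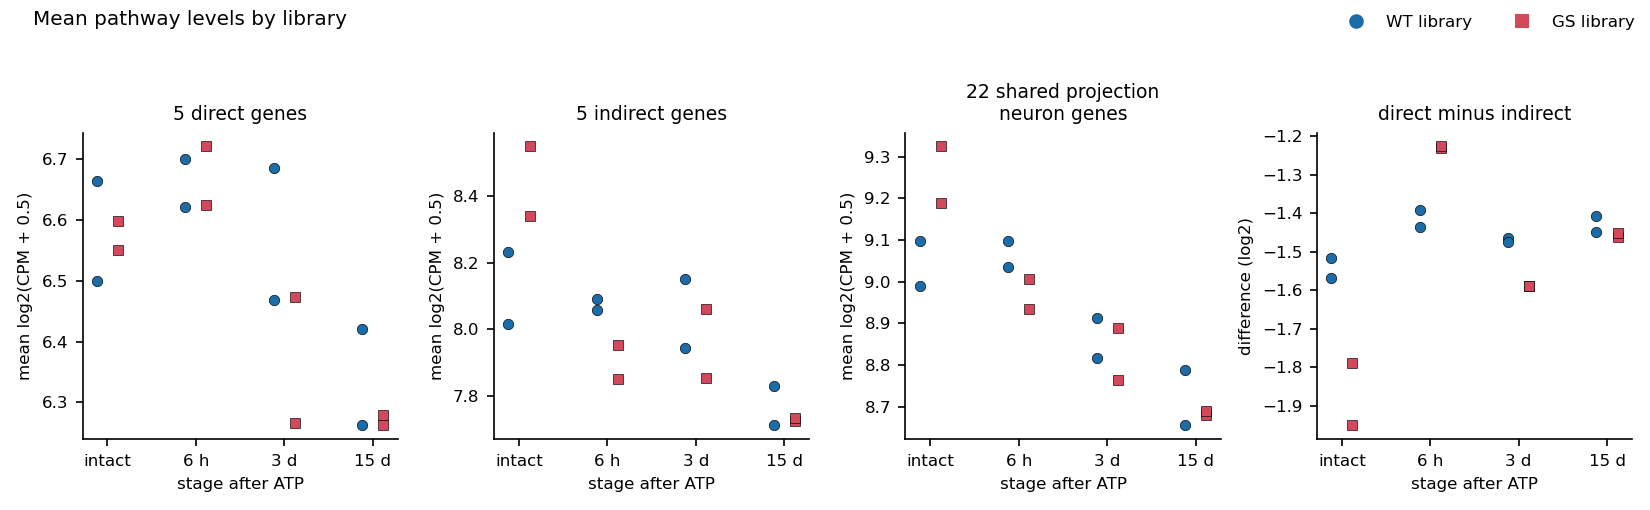
Mean log2(CPM + 0.5) of the 5 direct genes, the 5 indirect genes and the 22 shared projection neuron genes, and the direct minus indirect difference (panels), in each library by stage, with WT as circles and GS as squares. The difference is lowest in the 2 GS intact libraries, at -1.79 and -1.95, and highest in the 2 GS libraries at 6 h.

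Within each genotype, set against its own intact group, the 10 genes were called more often in GS on the scale of all genes, and the difference between genotypes was tested separately. In WT 0 of 10 passed at 6 h (nearest Gpr52, -0.39 ± 0.15, adjusted p = 0.15), 3 at 3 d and 5 at 15 d, where 4.09%, 27.4% and 25.4% of all genes passed in either direction. At 6 h Gpr52 had an unadjusted p of 0.019 in edgeR and did not pass with DESeq2 or limma-voom (adjusted p = 0.07 and 0.17). A fit of only the groups compared called Gpr52 (-0.39, adjusted p = 0.017). In WT Pdyn rose at 3 d (0.47 ± 0.15, adjusted p = 0.029), Chrm4 fell at 3 d and 15 d (-0.51 ± 0.09 and -0.41 ± 0.09) and Adora2a did so too (-0.42 ± 0.09 and -0.46 ± 0.09). Drd1 (-0.34 ± 0.11, adjusted p = 0.035), Penk (-0.48 ± 0.11, adjusted p = 0.0048) and Gpr52 (-0.45 ± 0.15, adjusted p = 0.036) fell in WT at 15 d. Those 3 calls were lost without WT intact replicate 2, those of Drd1 and Gpr52 also without WT 15 d replicate 2, and that of Gpr52 also without WT intact replicate 1 (adjusted p up to 0.33). The rise of Pdyn at 3 d did not pass without replicate 1 of WT intact or of WT at 3 d (adjusted p up to 0.20) and without the 3 libraries high in cortical markers.

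In GS 6 of 10 passed at 6 h, 7 at 3 d and 10 at 15 d, where 13.8%, 35.1% and 37.1% of all genes passed. Pdyn rose at each time, by 0.94 ± 0.15, 0.62 ± 0.15 and 0.60 ± 0.15, and every other call in GS was a fall. Adora2a fell at each time (-0.70 ± 0.09, -0.83 ± 0.09 and -0.98 ± 0.09), and so did Drd2 (-0.51 ± 0.10, -0.51 ± 0.10 and -0.73 ± 0.10). Gpr52 fell at 6 h and 15 d (-0.97 ± 0.15 and -0.78 ± 0.15), and Chrm4 at all 3 times (-0.31 ± 0.09, -0.82 ± 0.09 and -0.73 ± 0.09). Chrm4 and Gpr6 at 6 h lost their call without any 1 of the 4 GS libraries compared, and Drd2 at 6 h without GS intact replicate 2 or GS 6 h replicate 2. Isl1 (-0.42 ± 0.10), Gpr6 (-0.52 ± 0.13) and Penk (-0.31 ± 0.11) fell at 3 d. The call for Gpr6 at 3 d was lost without GS 3 d replicate 2 (adjusted p = 0.098). That for Penk was lost without GS intact replicate 2 or GS 3 d replicate 2 (adjusted p up to 0.30), as were those of Pdyn at 3 d and 15 d without GS intact replicate 2 (adjusted p up to 0.069). Pdyn at 3 d was also lost without GS 3 d replicate 1, and Tac1 at 15 d (-0.54 ± 0.15) without GS intact replicate 2 or either GS library at 15 d (adjusted p up to 0.14).

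Scaled to shared projection neuron genes, 0, 4 and 1 of the 10 passed in WT at 6 h, 3 d and 15 d, where 1.59%, 25.5% and 43.1% of all genes passed. In GS 5, 4 and 2 passed, where 24.7%, 54.5% and 70% of all genes passed, so the counts were equal at 3 d. All 5 falls in WT at 15 d were lost on this scale, with Adora2a at -0.11 ± 0.08, Chrm4 at -0.07 ± 0.09 and Penk at -0.12 ± 0.08, and Pdyn rose, at 0.50 ± 0.15 (adjusted p = 0.014). In GS at 15 d Pdyn (1.20 ± 0.15) and Adora2a (-0.38 ± 0.08) were the 2 that passed. Drd1 rose in GS at 6 h and 3 d, at 0.32 ± 0.08 (adjusted p = 0.0095) and 0.33 ± 0.08 (adjusted p = 0.0024), and Tac1 rose in WT at 3 d, at 0.33 ± 0.11 (adjusted p = 0.046).

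None of the 10 genes passed the test between genotypes at any stage or on average, with edgeR, nor did any pass the test of whether GS and WT responded differently. Of all genes 0.0159% passed in intact striatum, 0.00532% at 6 h, 0.0106% at 3 d, 0.00532% at 15 d and 0.0106% on average. For the difference of responses the share was 0.0106% at 6 h, then 0% at 3 d and finally 0% at 15 d. At an unadjusted p under 0.05 the 10 genes counted 5, 3, 2, 0 and 1 in the genotype contrasts and 6, 5 and 4 in the response contrasts. All genes counted 2056, 1285, 1552, 915 and 1857, and 1772, 1866 and 1028. DESeq2 called 2, 0, 0, 0 and 0 of the 10 genes and then 3, 2 and 1, and limma-voom called 0 in each. Of all genes limma-voom called only 6, 1, 1, 1 and 2, and then 0, 0 and 0. Of the genes to which DESeq2 gave an adjusted p, between 941 and 18813 by contrast, it called 1.12%, 0.309%, 0.139%, 0.0213% and 0.514%, and then 1.48%, 6.59% and 0.833%. With 2 libraries a group, the intervals are wide and a p that misses the threshold does not show that the genotypes are alike.

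On the scale of all genes, the largest GS minus WT value of any stage was that of Drd2 in intact striatum. There it was 0.43 ± 0.10 (adjusted p = 0.21) for Drd2 by edgeR, with a 95% interval of 0.22 to 0.64. Adora2a was at 0.39 ± 0.09 (adjusted p = 0.19), with 0.21 to 0.57. Gpr6 was at 0.35 ± 0.13 and Gpr52 at 0.27 ± 0.15, while Pdyn was at -0.41 ± 0.15 (adjusted p = 0.35). Both GS intact libraries were above both WT ones in Drd2, Adora2a, Gpr6 and Chrm4, and below them in Pdyn. The median over the indirect set was 0.35 and over the direct set 0.08, against -0.01 over all genes and 0.21 over the 22 shared projection neuron genes. Scaled to those 22 genes, which moved the median of all genes to -0.22, the value was 0.22 ± 0.08 for Drd2, 0.18 ± 0.08 for Adora2a, 0.14 ± 0.12 for Gpr6 and -0.04 ± 0.08 for Penk, while Pdyn was at -0.61 ± 0.15 (adjusted p = 0.07). On the scale of all genes DESeq2 called Drd2 (0.44, adjusted p = 0.0048) and Adora2a (0.40, adjusted p = 0.0034).

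The response at 6 h in GS minus that in WT was -0.59 ± 0.12 (adjusted p = 0.19) for Adora2a with a 95% interval of -0.85 to -0.33. It was -0.60 ± 0.14 (adjusted p = 0.21) for Drd2, with -0.90 to -0.31. For Pdyn it was 0.73 ± 0.21 (adjusted p = 0.31), with 0.29 to 1.18. DESeq2 called these 3 at adjusted p = 0.0011, 0.0048 and 0.037. The median of this difference over the 22 shared projection neuron genes was -0.34. Scaled to them it was -0.30 ± 0.11 (adjusted p = 0.14) for Adora2a, -0.31 ± 0.11 (adjusted p = 0.13) for Drd2 and 1.01 ± 0.21 (adjusted p = 0.091) for Pdyn by edgeR. These contrasts use the same intact libraries as the genotype difference in intact striatum. At 6 h itself GS minus WT was -0.20 ± 0.09 for Adora2a, -0.17 ± 0.10 for Drd2 and 0.32 ± 0.15 for Pdyn. At 15 d the genotypes were closest, with GS minus WT between -0.16 (Isl1) and 0.05 (Pdyn).

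**Figure D4:**
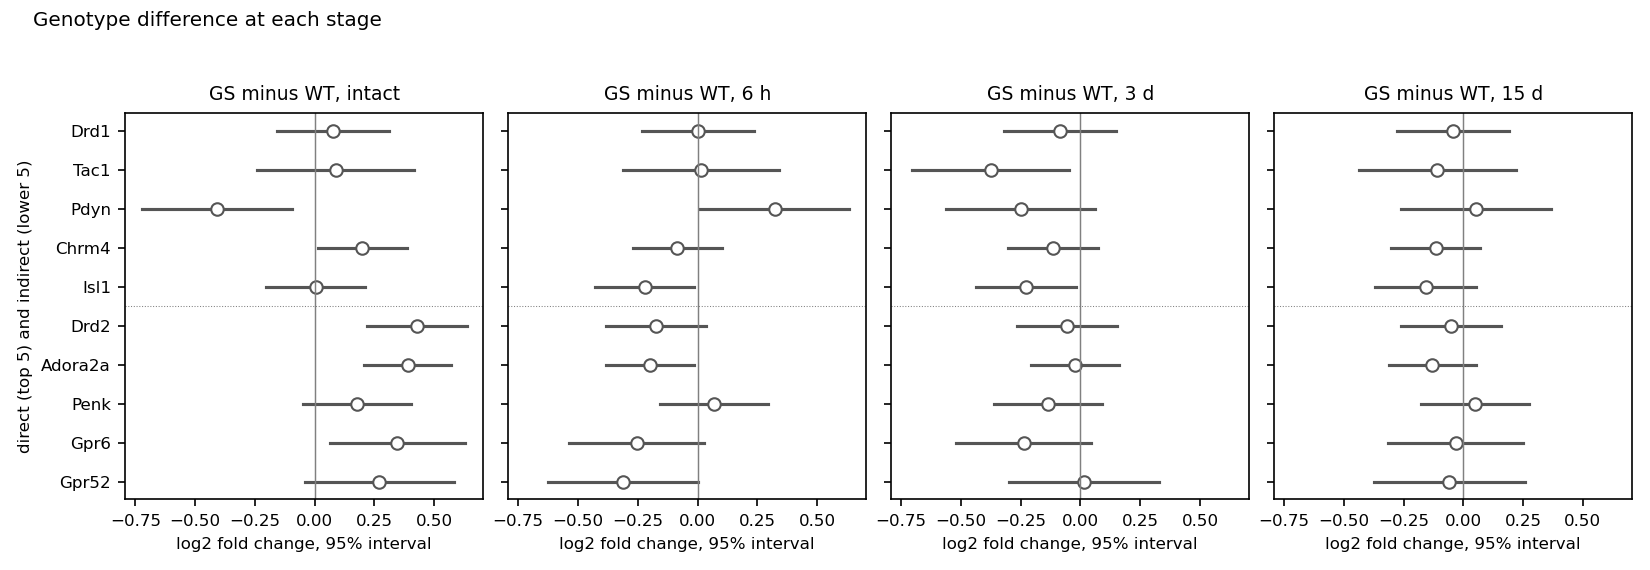
GS minus WT log2 fold change with its 95% interval for each gene (rows, direct set above the dotted line) in intact striatum and at 6 h, 3 d and 15 d (panels). Open points did not pass an adjusted p under 0.05, which holds for all 40 values; in intact striatum the 5 indirect genes lie at 0.18 to 0.43 and Pdyn at -0.41 on the scale of all genes, whereas Penk is at -0.04 scaled to shared projection neuron genes.

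Other genes used as markers of each pathway were followed in lists of 7 and 5. On the scale of all genes, of the 7 further direct pathway genes 0 rose and 2 fell at 6 h, 1 rose and 3 fell at 3 d, and 0 rose and 5 fell at 15 d. Sfxn1 (-0.94 ± 0.13, adjusted p = 3.8e-05), a mitochondrial serine carrier, and Reln (-0.78 ± 0.06, adjusted p = 3.8e-07), the secreted glycoprotein reelin, fell most at 15 d. Zfp521 (-0.35 ± 0.08), a zinc finger factor, and Sfxn1 (-0.38 ± 0.13) were the 2 that fell at 6 h. Foxp2, a forkhead factor, rose at 3 d (0.20 ± 0.06, adjusted p = 0.017). Of the 5 further indirect pathway genes 0 changed at 6 h, 1 rose and 4 fell at 3 d, and 1 rose and 3 fell at 15 d. Sp9, a zinc finger factor needed for indirect neurons, was at -0.54 ± 0.08 at 3 d and -0.25 ± 0.08 at 15 d, and Ttc12, which neighbours Drd2 in the genome, was the 1 that rose (0.47 ± 0.12 and 0.78 ± 0.12). Scaled to shared projection neuron genes the counts turned: at 15 d 5 of the 7 direct markers rose and 2 fell (Reln and Sfxn1), and 4 of the 5 indirect markers rose, Sp9 among them, at 0.23 ± 0.08, and 0 fell. The medians at 6 h, 3 d and 15 d were -0.13, -0.22 and -0.22 for the direct and 0.05, -0.33 and -0.25 for the indirect markers on the scale of all genes, and -0.04, 0.09 and 0.25, and 0.13, -0.02 and 0.23 on the second scale.

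Genes that process or receive the peptides were followed in a list of 11. At 6 h 1 rose and 1 fell, at 3 d 1 rose and 6 fell, and at 15 d 2 rose and 7 fell. Pcsk1, a convertase that cuts prohormones, rose at 3 d and 15 d (0.85 ± 0.11 and 0.49 ± 0.11), while Pcsk2, the convertase that cuts prodynorphin further, rose at 6 h and fell later (0.31 ± 0.08, -0.31 ± 0.08 and -0.53 ± 0.08). Pcsk1n, which encodes an inhibitor of the first convertase, fell at each time (-0.34 ± 0.07, -0.54 ± 0.07 and -0.27 ± 0.07), but its value at 15 d was 0.21 scaled to shared projection neuron genes. Cpe, the carboxypeptidase of the same route, rose at 15 d (0.47 ± 0.05). Among receptor genes, Oprk1, the dynorphin receptor, fell at 3 d and 15 d (-0.65 ± 0.12 and -0.41 ± 0.12), and Oprd1, a receptor for enkephalins, did so too (-0.36 ± 0.09 and -0.52 ± 0.09). Tacr1, the substance P receptor, which cholinergic interneurons also carry, was at -0.58 ± 0.09 at 15 d, and Oprm1 did not pass at any time (-0.20 ± 0.18 at 15 d). On the scale of the shared projection neuron genes 3 of the 11 rose and 2 fell at 3 d, and 4 rose and 0 fell at 15 d. There Pcsk1 was at 1.15 ± 0.10 and 0.97 ± 0.10 and Cpe at 0.37 ± 0.06 and 0.95 ± 0.06 at 3 d and 15 d, while Oprk1 was at -0.35 ± 0.12 and 0.05 ± 0.12.

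Markers of other cell types moved in the same libraries. Of 8 microglia genes 1 rose and 2 fell at 6 h, and 8 rose at 3 d and at 15 d, with a summed level of 314 to 337 CPM in intact striatum and 899 to 1896 CPM at 15 d. Of 6 astrocyte genes 2, 6 and 5 rose at the 3 times, from 826 to 868 CPM intact to 2035 to 3139 CPM at 15 d. Of 6 oligodendrocyte genes 0, 0 and 5 rose, from 6878 to 7223 CPM to 8116 to 9658 CPM. Of 6 genes of other interneurons 2, 5 and 5 fell, or 0, 1 and 1 scaled to shared projection neuron genes, and all 4 red cell transcripts rose at 6 h alone (27.7 to 58.9 CPM against 3.34 to 5.82 CPM). Of 7 cortical markers measured 0, 7 and 5 fell, with Slc17a7, which defines them, at 136, 15.6, 30.3 and 30.4 CPM in the 4 intact libraries. Their summed level was 9.37 to 16.9 CPM at 3 d. The choroid plexus list summed to 52.8 to 407 CPM in intact striatum and 58.5 to 270.0 CPM at 15 d. Further, 2 of 5 markers of thalamic neurons rose at 3 d and 15 d and 1 fell at 3 d. The part of these cells in the values of the 10 genes was not tested.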

How the data were processed

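Striatal RNA of 16 mouse libraries was analysed, 2 in each of 8 groups. Per the labels' protocols, total RNA was purified with RNeasy kits and made into TruSeq RNA libraries. The deposited table gives raw read counts per gene, per the file headers. The submitters' processing notes name FastQC 0.11.7 and the genome build mm10. The sources used here do not give the aligner, the counting tool or whether strand was used. Columns marked NT were taken as WT by elimination, since all GS columns matched GS samples. The table holds only genes with at least 1 count in every library.

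Counts were tested in R 4.3.3 using edgeR 4.0.16, with filterByExpr by group (18813 genes kept, 644 removed) and TMM. The quasi-likelihood model had 8 group coefficients, 8 residual degrees of freedom and 19 contrasts over all 16 libraries. P-values were adjusted by Benjamini-Hochberg over all genes tested, and genes with an adjusted p under 0.05 were called. SE was obtained by dividing the size of the log2 fold change by the root of F, and the 95% intervals use it, so both are approximate. CPM values are TMM-normalised. Replicates differed by more than counting noise, with chi-square 9.75 to 32.7 times its degrees of freedom, so their spread and not the depth limits precision. Same-numbered libraries mostly did not deviate together. Over 28 pairs of groups r of their deviations was -0.14 to 0.29, with a median of 0.02 and 6 above 0.1.

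Alternatives were RLE factors, library sizes set to 22 shared projection neuron genes, no filter, a mean of at least 1 CPM, the replicate number as a block, a cortical marker covariate, leaving out 3 WT libraries or each library, only the groups compared, limma-voom (limma 3.58.1) and DESeq2 1.42.0. For the pathway balance a pseudocount of 0.1 CPM replaced 0.5. As a check of the code, the fit was also run on simulated counts, which is no support for the values given here. Of other direct, other indirect, shared projection neuron and peptide-related genes, the rule named up to 4 per list and time by size of change among those that passed, and some genes that it selected are not reported here. Others were added to describe a list or an overlap (Oprm1, Oprd1, Pcsk1n, Chat, Slc17a7, Mdk and Rabgap1l). The 10 genes, the lists and this rule were chosen with earlier results of these data known. Promoters are RefSeq sequences of GRCm38.p6, and exon lengths are from GENCODE M21.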

Additional observations from a re-analysis of the deposited data

How the results depend on the processing

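Of the 190 gene-by-contrast results of the 10 genes, all kept their side of the threshold, and no called value changed sign, with RLE size factors; so did 189 with no low-count filter, with limma-voom, with the stricter filter at 1 CPM and with the replicate number as a block, 185 without the 3 WT libraries high in cortical markers, 183 with the cortical covariate and 179 with DESeq2, which gained 11 calls and lost 0. Values called in neither fit changed sign in 0 to 4 results in each of these settings, but in 20 without the 3 WT libraries, and in 81 of 3040 over the libraries left out. With the replicate block 2 members fell at 6 h, since Drd2 lost its call, and no other call changed. By the labels the same-numbered libraries share only a number. Fitting only the groups compared kept 174 of 180 results. Leaving out each library kept 2975 of 3040, and the members called down from 3 d to 15 d numbered 2 to 5 (2 without GS 15 d replicate 2). DESeq2 called 2 members between genotypes in intact striatum, where edgeR called 0.

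Setting library sizes to the shared projection neuron genes changed most: 146 results kept their side of the threshold, 20 lost their call, 6 gained one and 18 that were called on either scale changed sign. A further 43, called on neither scale, changed sign as well and are among the 146, so 61 turned in all, since by construction the change of the shared genes is taken out. Members that rose then numbered 2 at 6 h and 4 at 3 d, and those that fell numbered 2 at 3 d and 1 at 15 d. The values called on either scale that turned at 3 d were Drd1 0.27, Tac1 0.24, Drd2 0.040 and Penk 0.15, with Gpr6 (0.071) and Gpr52 (0.17) turning without a call, and at 15 d Drd1 0.074, Tac1 0.037, Isl1 0.14 and Gpr6 0.15. Within WT at 15 d Drd1 was at 0.0036. Within GS Drd1 was at 0.33, Isl1 at 0.017 and Penk at 0.14 at 3 d, and Drd1 at 0.14, Tac1 at 0.069, Isl1 at 0.18, Penk at 0.0081 and Gpr6 at 0.083 at 15 d. From 6 h to 3 d Drd2 was at 0.16. Without the peptide genes the balance of both sets differed from intact by -0.017 at 3 d and 0.10 at 15 d.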

Other observations

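Likeness across libraries followed the division into pathways only in part, with the highest median within the indirect set. As a description, with no test, Pearson's r of log2 CPM over the 16 libraries, which share stage and tissue makeup, had a median of 0.50 over the 10 pairs of direct genes (-0.44 to 0.83), 0.71 over the 10 pairs of indirect genes (0.49 to 0.90) and 0.61 over the 25 pairs across both (-0.62 to 0.91). The highest value, 0.91, joined Drd1 and Penk, followed by Chrm4 and Adora2a at 0.90, and the lowest, -0.62, joined Pdyn and Adora2a. Pdyn had an r of 0.11 with Drd1, 0.00 with Tac1, -0.24 with Isl1 and -0.44 with Chrm4, genes of the same neurons. These were the lowest values among the direct pairs. Outside the 10, the genes with a mean of at least 1 CPM that were most like Drd1 included Pja2, Camk4, Pde7b and Prkacb, at r from 0.94 to 0.95. Those most like Drd2 were Lmtk2, Add1, Meis2, Scn2b and Coro2b, at r from 0.93 to 0.94.

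Relative to the mean log2 level of the 22 shared projection neuron genes in the same library, Gpr52 went from -0.53 at 6 h to 0.18 at 3 d and -0.17 at 15 d, as differences from intact. Pdyn stood at 0.70, 0.84 and 0.82 and Adora2a at -0.27, -0.32 and -0.27 on this scale. Pcsk1, whose product cuts the precursors of Pdyn and Penk, rose with Pdyn at 3 d and 15 d but not at 6 h, where it was at -0.18 ± 0.11 (adjusted p = 0.31) by edgeR.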
